A study of Rattus norvegicus with 24 samples.

Results

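The comparison described here is that of lean Zucker rats fed ecdysterone (LE) with lean Zucker rats fed the same diet without it (LC), and it comprises 12 of the 24 liver samples of the study, 6 LE and 6 LC rats, assigned by the group given in the sample labels. All 12 were male, heterozygous (fa/+) rats. The LE and the LC rats alike thus carried 1 mutant (fa) copy of Lepr, the gene of the leptin receptor, and no group was wild type. The age of 25 weeks given in the labels is that at the start of feeding, so the livers came from older rats. The diet of the LE rats contained 0.5 g ecdysterone per kg, the LC rats received the basal diet alone, and both diets were fed for 4 weeks with free access. The rats were killed in the non-fasted state, and the time of day is not given in the sources used here. The other 12 samples came from obese (fa/fa) rats of the same sex and age with the same 2 diets (OE, 6 rats, and OC, 6 rats) and are used only for the comparison of the diet effect between genotypes. The arrays were those of 6 rats drawn at random from 8 in each group, 1 Affymetrix Clariom S rat array per rat. Rats were housed 2 per cage, and since no label gives the cage of a rat, cages could not be entered in a fit. Rats are named below by group and array number, LE 7 to 12 and LC 1 to 6.

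Ecdysterone (20-hydroxyecdysone) is the moulting hormone of insects and is also made by plants such as spinach. In insects it binds the ecdysone receptor, a nuclear receptor that acts as a dimer with ultraspiracle, the insect counterpart of the retinoid X receptor. Vertebrates have no ecdysone receptor gene, and among their nuclear receptors the liver X receptors (LXR) and the farnesoid X receptor (FXR), sensors of oxysterols and of bile acids, are close relatives of it. In the liver, FXR induces the repressor SHP, which lowers the transcription of Cyp7a1 and thereby bile acid synthesis, while LXR drives cholesterol export and fatty acid synthesis. The comparison therefore addresses whether the steroid alters hepatic transcription, and lipid metabolism genes above all, in animals without obesity.

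Values are log2 signals as deposited, so that a difference of 1 is a 2-fold change, and every difference given is LE minus LC unless stated otherwise. Fold changes (FC) are written as in the study, with a negative sign for lower signals in LE. The median signal of an array was 6.53 to 6.57 in LE and 6.51 to 6.59 in LC rats, and arrays correlated with those of their own group at a mean r of 0.986 to 0.987 in LE and 0.983 to 0.986 in LC. The mean of 9 hepatocyte markers was 18.87 to 18.91 in LE and 18.78 to 18.98 in LC livers, with Alb, the gene of serum albumin, at 19.9 to 19.92 in LE and 19.85 to 19.92 in LC, near the upper end of the scale. Precision is limited by the number of arrays throughout.

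No transcript passed the test in the comparison LE vs. LC. Of 23188 transcripts, 0 (0.0%) had an adjusted p under 0.05 in limma with Benjamini-Hochberg adjustment, and the lowest adjusted p was 1.0. An unadjusted p under 0.05 was reached by 847 transcripts (3.65%), a share below the 0.05 expected if no transcript differed. The criteria of the study's methods were an FC over 1.3 in either direction with an unadjusted p under 0.05. They were met by 625 transcripts (2.7%), of which 306 (1.32%) were higher and 319 (1.38%) lower in LE. By the methods' t-test 430 transcripts met these criteria, with a lowest adjusted p of 0.24. The 625 transcripts are called candidates below, a term that stands for the criteria in the limma fit and not for a difference that passed the test. Differences were above 0 for 49.3% and below 0 for 50.7% of all transcripts, with a median of −0.003 and a standard deviation (SD) of 0.186.

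Candidates were more frequent among dim transcripts. Their share was 3.26%, 3.52%, 2.81% and 1.19% in 4 equal bins of transcripts, ordered by mean signal and given with the dimmest first. Genes of smell and taste receptors, which serve the sensory epithelia, had a median signal of 4.83, against 6.55 for all transcripts, and 60 of 1544 (3.89%) were candidates. Of the 625 candidates, 232 had a mean signal at or above the median of all transcripts, 122 higher and 110 lower in LE, and single genes below come mainly from these. When each of the 12 lean rats was left out in turn, 186 of the 625 candidates met the criteria every time, 67 of them with a signal at or above the median.

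**Figure D1:**
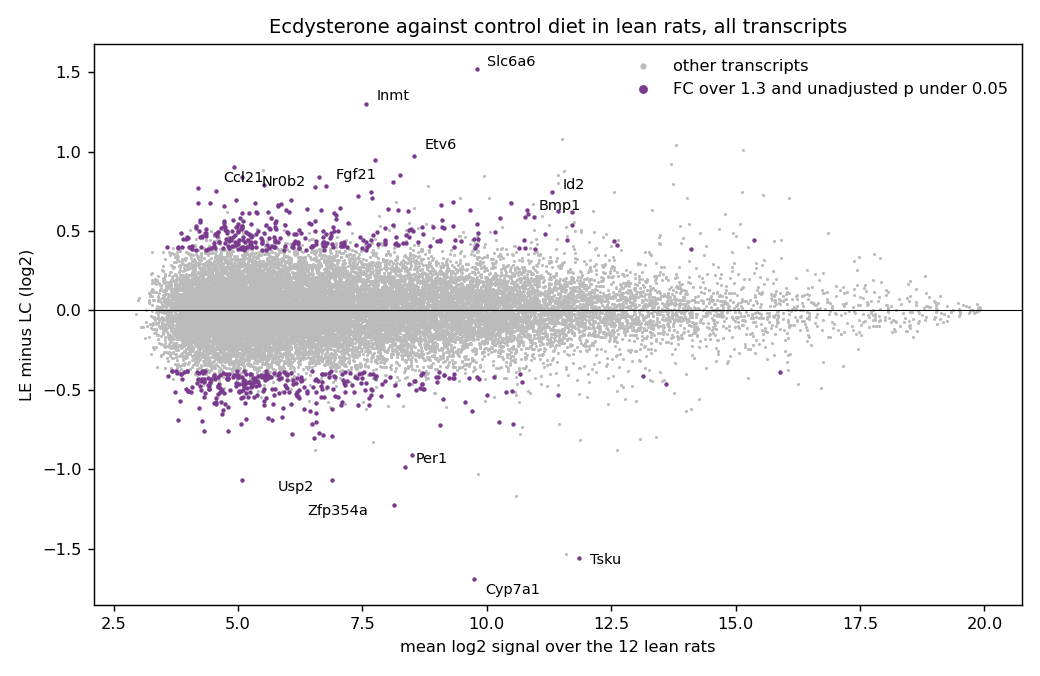
Difference LE minus LC (log2, vertical axis) of each of 23188 transcripts plotted against its mean log2 signal over the 12 lean rats (horizontal axis), with the 625 transcripts past an FC of 1.3 and an unadjusted p under 0.05 in purple. Most differences lie close to 0, and Cyp7a1 and Tsku are the lowest and Slc6a6 and Inmt the highest of the candidates.

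Tsku had the lowest unadjusted p of all transcripts. It encodes tsukushi, a small leucine-rich proteoglycan secreted by the liver that binds ligands of the BMP and TGF-beta type. Its log2 signal was 10.33 at the lowest, 10.99 at the median and 12.12 at the highest in LE rats, against 11.67, 12.57 and 13.93 in LC rats. The signals of 5 of 6 LE rats lay below those of every LC rat, and LE 12 alone overlapped the LC range. The group means were 11.07 ± 0.60 in LE and 12.64 ± 0.86 in LC (SD, n = 6 each), a difference of −1.56 (standard error (SE) 0.34, FC −2.95), with an unadjusted limma p = 0.00025 and a two-sided exact permutation p = 0.00649. The difference stayed between −1.77 and −1.31 when each rat was left out in turn, and no such unadjusted limma p was above 0.001. In a bulk tissue sample, fewer cells of a type and less RNA per cell cannot be told apart, here and in all results below.

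Of the 12 genes of bile acid synthesis measured, 1 was a candidate (2.7% of all transcripts were), 7 were above and 5 below 0, and the median was 0.04. The candidate was Cyp7a1, whose product catalyses the rate-limiting step from cholesterol to bile acids. The signal of Cyp7a1 was 7.91 at the lowest, 8.40 at the median and 10.97 at the highest in LE livers, against 8.40, 10.05 and 13.12 in LC livers. Only 3 LE rats lay below the LC range, and LC 5 (12.92) and LC 6 (13.12) stood above all other lean rats. The difference of −1.69 (SE 0.71, FC −3.23) was the most negative among the candidates, but the limma p was 0.0292 before adjustment and the exact permutation p was 0.108. The criteria were missed when any of 6 rats was left out, and without LC 6 the difference was −1.19. Cyp8b1, the sterol 12-hydroxylase that sets the share of cholic acid, differed by −0.02, Cyp27a1, which opens the acidic branch, by −0.04 and Cyp7b1, the oxysterol 7-hydroxylase of that branch, by 0.32. The value of Cyp7b1 rested on LE 11, whose signal was 10.41 against 7.82 to 8.36 in the other LE rats, and was −0.07 without it.

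Nr0b2 encodes SHP, the FXR-induced repressor of Cyp7a1. Its signal was 6.18, 7.10 and 8.57 (lowest, median and highest) in LE and 5.43, 6.39 and 7.55 in LC rats, and LE 11 alone lay above every LC rat. The difference was 0.78 (SE 0.34, FC 1.72, unadjusted limma p = 0.0357, exact permutation p = 0.0952), and without LE 11 it was 0.50 and missed the criteria, which it did for any of 6 rats. With LE 11 and 12 and LC 1 and 2 left out, the rats with the lowest clock scores described further on, it was 0.19. LE 11 had the highest Nr0b2 signal of the LE rats and also their highest Cyp7a1 signal. Nr1h4, which encodes FXR itself, was at 15.25, 15.87 and 16.52 in LE against 15.94, 16.22 and 16.62 in LC, a difference of −0.37 (exact permutation p = 0.0974) with 3 LE rats below the LC range. Nr5a2 (LRH-1), an activator of Cyp7a1 transcription, differed by 0.35 (exact permutation p = 0.0325), under the FC of 1.3. Of the FXR targets that export bile, Abcb11, the bile salt pump, differed by 0.10 and Abcb4, the phospholipid transporter of the canalicular membrane, by 0.39 (exact permutation p = 0.223). The 10 genes of the FXR circuit held 1 candidate, Nr0b2, where 2.7% of all transcripts were candidates, and had a median of 0.10.

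Genes of the LXR system lay close to 0 as a group. None of 11 LXR targets and receptors was a candidate (2.7% of all transcripts were), 5 were above and 6 below 0, and the median was −0.01. Nr1h3 (LXR alpha) differed by 0.00, with a 95% confidence interval of −0.44 to 0.45, and Nr1h2 (LXR beta) by −0.24 (−0.64 to 0.16). Abca1, which loads cholesterol onto high-density lipoprotein, differed by −0.08 (−0.40 to 0.24), Abcg5, which moves sterols into bile, by −0.03 (−0.45 to 0.39), and Mylip, the ligase that degrades the LDL receptor, by 0.00 (−0.34 to 0.34). All of these intervals but that of Mylip include an FC of 1.3, a log2 difference of 0.379, in at least 1 direction. Esr2, the gene of oestrogen receptor beta, through which ecdysterone has been proposed to act in muscle, had signals of 3.02 to 3.49 in LE and 3.21 to 3.72 in LC livers, at percentile 0.216 of all transcripts, and Esr1 (oestrogen receptor alpha), at percentile 81.4, differed by 0.31 (−0.27 to 0.89).

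Genes of fatty acid oxidation under PPAR alpha, the fatty acid-sensing nuclear receptor of liver, were mostly higher in LE on average. The amounts were small and the rats of the groups overlapped widely. Of 30 targets measured, 24 were above and 6 below 0, with a median of 0.14 against −0.003 for all transcripts. Among them were 2 candidates, Fgf21 and Pex11a, where 2.7% of all transcripts were candidates. The median was between 0.065 and 0.192 when each rat was left out. The mean signal of the list per rat was 12.87 to 13.51 in LE and 12.73 to 13.36 in LC. Fgf21, a fasting- and diet-regulated hormone of the liver, was at 7.65, 8.62 and 9.06 in LE and 6.57, 7.65 and 8.76 in LC rats, with 2 LE rats above the LC range. Its difference was 0.81 (SE 0.30, FC 1.75, unadjusted limma p = 0.0143, exact permutation p = 0.0498) and met the criteria without any single rat, with a lowest value of 0.58 without LC 6. Pex11a, which takes part in the division of peroxisomes, was at 8.84, 9.42 and 9.76 in LE and 8.17, 8.87 and 9.66 in LC, a difference of 0.52 (FC 1.44, unadjusted limma p = 0.0242, exact permutation p = 0.0498). The other targets were less separated. Cpt1a, the gate of mitochondrial fatty acid import, differed by 0.51 (exact permutation p = 0.429) and Plin2, a lipid droplet coat protein, by 0.46 (exact permutation p = 0.348), while Ppara itself differed by −0.09.

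Lipid synthesis showed no candidate, but 2.7% of all transcripts were candidates, so lists of this size often hold none. Of 18 genes of fatty acid and triglyceride synthesis, 10 were above and 8 below 0 (median 0.05), and of 23 genes of cholesterol synthesis and uptake 16 were above and 7 below 0 (median 0.09). Both medians depended on single rats, at −0.077 (without LC 3) to 0.164 (without LE 11) for fatty acid and 0.021 (without LC 6) to 0.213 (without LC 3) for cholesterol genes. With LE 11 and 12 and LC 1 and 2 left out, they were 0.316 and 0.505, with 13 of 18 and 22 of 23 members above 0. Fasn, the fatty acid synthase, was at 14.40, 15.72 and 17.00 in LE and 13.48, 16.40 and 16.79 in LC, a difference of −0.07 with a 95% interval of −1.13 to 0.99. Scd1, the stearoyl-CoA desaturase, differed by 0.11 (−0.32 to 0.54) and Srebf1, the transcription factor of lipogenesis, by 0.10 (−0.40 to 0.60). Differences over 1 came with a wide spread within both groups. Pnpla3, a lipid droplet lipase and acyltransferase, was at 12.65, 14.28 and 16.10 in LE and 11.25, 12.52 and 15.85 in LC (difference 1.04, exact permutation p = 0.279), and Insig1, which retains the SREBP complex in the endoplasmic reticulum, was at 14.89, 15.28 and 17.00 in LE and 11.65, 15.00 and 17.46 in LC (1.01, exact permutation p = 0.357). Of 6 genes of polyunsaturated fatty acid synthesis, 5 were above 0 and 0 were candidates, with a median of 0.26. Their mean signal per rat overlapped, at 14.46 to 15.29 in LE and 14.51 to 15.24 in LC. Fads1 and Fads2, the delta-5 and delta-6 desaturases, differed by 0.36 and 0.33. Elovl2, the elongase that acts on very long polyunsaturated fatty acids, differed by 0.27 (−0.06 to 0.61).

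Lpcat2 was the most distinct gene of phospholipid remodelling. It encodes a lysophosphatidylcholine acyltransferase best known from inflammatory cells, and its signal, in the lower part of the scale, was 5.2, 5.68 and 6.12 in LE against 4.82, 4.94 and 5.36 in LC. The signals of 5 LE rats lay above every LC rat (difference 0.68, SE 0.17, FC 1.60, unadjusted limma p = 0.000724, exact permutation p = 0.00649). It was the 1 candidate among 13 acyltransferases of this kind (median 0.09), each taken by its brightest probe set. Of all transcripts, 2.7% were candidates. Mboat7, which acts on phosphatidylinositol, has a pair of probe sets of similar signal, of which the brighter differed by −0.38 (exact permutation p = 0.0866) and missed the criteria, while the other differed by −0.44 (exact permutation p = 0.0476) and met them. The 11 macrophage markers had a mean signal of 8.72 to 9.33 in LE and 8.91 to 9.27 in LC livers, with none a candidate and a median difference of 0.06, and Adgre1, the gene of the macrophage surface protein F4/80, at 0.36 (exact permutation p = 0.0281). The part of these cells in the difference of Lpcat2 was not tested.

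Inmt and Slc6a6 had the largest positive differences of the candidates. Inmt encodes indolethylamine N-methyltransferase, which transfers methyl groups from S-adenosylmethionine to amines such as tryptamine. Its signal was 6.96, 8.04 and 9.80 in LE and 6.26, 6.71 and 8.17 in LC rats, and LE 9, 11 and 12 lay above every LC rat while LE 7, 8 and 10 lay within the LC range. The difference was 1.3 (SE 0.45, FC 2.47, unadjusted limma p = 0.0099, exact permutation p = 0.0541), and without LE 11 and 12 and LC 1 and 2 it was 0.81 and missed the criteria. Among 18 genes of methyl group and sulphur amino acid metabolism Inmt was the 1 candidate (median 0.06), against 2.7% of all transcripts. Mat2a, a synthase of S-adenosylmethionine, differed by −0.33 and Cbs, the entry to transsulphuration, by 0.29. Slc6a6, the taurine transporter, was at 8.56, 10.77 and 12.09 in LE and 6.83, 9.31 and 11.18 in LC, a difference of 1.52 (SE 0.67, FC 2.86, unadjusted limma p = 0.0375, exact permutation p = 0.119). It missed the criteria when any of 7 rats was left out, and without LC 6 the difference was 1.08.

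Bmp1, named because its groups did not overlap, and Id2, a gene of BMP and SMAD signalling, were both higher in LE. Bmp1 encodes a secreted metalloproteinase that cleaves procollagen C-propeptides and the BMP antagonist chordin. Its signal was 10.94, 11.09 and 11.32 in LE against 10.16, 10.52 and 10.88 in LC rats, and the groups did not overlap. The difference was 0.61 (SE 0.15, FC 1.53, unadjusted limma p = 0.000834, exact permutation p = 0.00216, the smallest that 924 splits of 12 rats allow). Id2, a target of BMP signalling that blocks basic helix-loop-helix factors, was at 11.33, 11.52 and 12.69 in LE against 10.36, 11.01 and 11.45 in LC, with 3 LE rats above the LC range and LE 7 far above the rest of its group. The difference was 0.74 (SE 0.23, FC 1.67, unadjusted limma p = 0.00512, exact permutation p = 0.00866), and at the lowest 0.54 when a rat was left out. A list of 17 genes of the pathway, which did not include Bmp1, held 4 candidates, 3 higher and 1 lower (median 0.07), where 2.7% of all transcripts were candidates. Of these 4, Id2 and Tsku had been singled out from earlier results of these data. Beside Id2 the higher ones were Id4, a relative of Id2 (0.59, exact permutation p = 0.102), and Bambi, a decoy receptor (0.49, unadjusted limma p = 0.0146, exact permutation p = 0.026), and the lower one was Tsku. Not all targets of the pathway showed such differences: Id1 differed by 0.29 (exact permutation p = 0.214), Id3 by 0.07, Smad6 and Smad7, the inhibitory SMADs, by 0.14 and 0.18, and Hamp, the iron hormone hepcidin, by −0.02, although Hfe2, the BMP co-receptor hemojuvelin, differed by 0.67 (exact permutation p = 0.145).

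**Figure D2:**
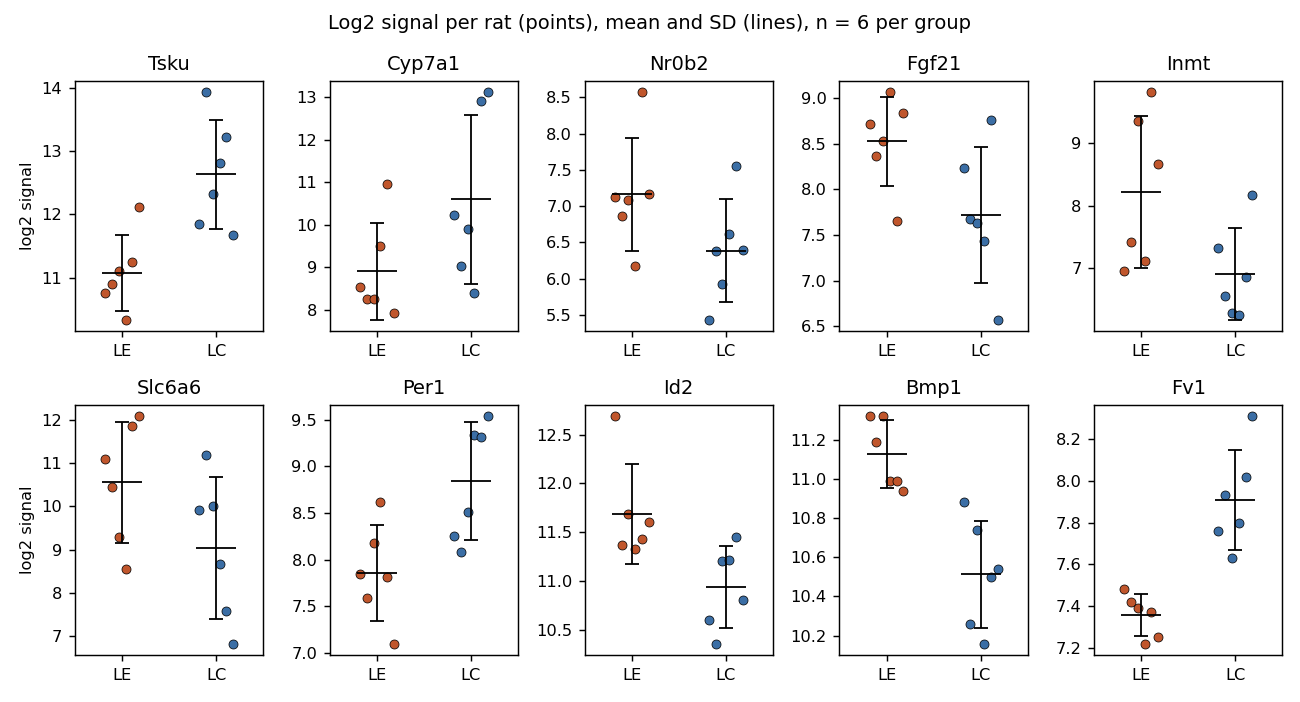
Log2 signal (vertical axis) of 10 genes in each of 6 LE rats (left in each panel) and 6 LC rats (right), 1 point per rat, with the group mean and SD. The groups do not overlap for Bmp1 and Fv1, overlap by 1 LE rat for Tsku, and overlap widely for Cyp7a1 and Slc6a6.

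Genes of the circadian clock varied widely among the lean rats of both groups. In the liver clock the activators BMAL1 (Arntl) and CLOCK or NPAS2 bind E-box elements, of which CACGTG is the canonical form, and drive the repressors of the Per and Cry families, the REV-ERB receptors (Nr1d1 and Nr1d2) and the output factors Dbp and Tef, which act on D-box elements. In RefSeq promoter sequences of build GRCr8 (250 bases before to 50 after a transcript start), 16 of 21 clock and clock output genes were matched, and 5 of their 18 promoters held CACGTG on either strand, against 2148 of 33469 of all promoters (6.42%). The 250 bases before the start of 3 of these genes, which enter the clock score below, are shown 5′ to 3′ with CACGTG in capitals, as an instance of the element. A match is a description and not evidence of binding.
Ciart (chr2:186112247-186112496, minus strand): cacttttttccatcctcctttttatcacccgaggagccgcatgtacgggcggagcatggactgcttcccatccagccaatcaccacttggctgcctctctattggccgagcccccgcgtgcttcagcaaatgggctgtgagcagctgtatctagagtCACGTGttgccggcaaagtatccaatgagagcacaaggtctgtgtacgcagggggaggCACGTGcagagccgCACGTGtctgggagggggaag
Nr1d1 (chr10:84229455-84229704, minus strand): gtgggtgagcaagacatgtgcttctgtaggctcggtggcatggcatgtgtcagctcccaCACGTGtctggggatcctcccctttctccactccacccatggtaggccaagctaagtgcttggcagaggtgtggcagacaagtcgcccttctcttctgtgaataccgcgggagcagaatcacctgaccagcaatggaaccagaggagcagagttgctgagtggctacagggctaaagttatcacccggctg
Tef (chr7:115206577-115206826, plus strand): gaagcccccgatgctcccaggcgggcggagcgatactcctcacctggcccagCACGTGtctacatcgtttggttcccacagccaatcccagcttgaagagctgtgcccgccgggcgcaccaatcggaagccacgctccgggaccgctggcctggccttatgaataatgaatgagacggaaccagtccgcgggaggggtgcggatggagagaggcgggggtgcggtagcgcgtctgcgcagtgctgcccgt

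Ciart, a repressor of the clock, held the motif 3 times. The windows of Per1 and Usp2 held none, nor did those of Dbp, Nr1d2, Per3, Clock, Npas2 and Nfil3, which enter the score, or another promoter of Nr1d1. This says only that these letters are not in those windows. The signals of the 3 genes shown overlapped widely between the groups: Ciart was at 4.93 to 7.06 in LE and 5.4 to 6.76 in LC (difference −0.28), Nr1d1 at 7.75 to 13.91 in LE and 7.21 to 15.30 in LC (−0.53, exact permutation p = 0.643), and Tef at 5.66 to 7.44 in LE and 4.80 to 7.86 in LC (−0.17).

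A clock score was formed per rat as the mean of Dbp, Nr1d1, Nr1d2, Per3, Tef and Ciart minus the mean of Arntl, Npas2, Clock, Nfil3 and Cry1. The score was −0.56, −1.24, 0.82, 1.35, −4.0 and −3.92 in LE 7 to 12 and −3.82, −4.45, −0.48, 1.72, 1.97 and 2.56 in LC 1 to 6. Both groups thus held 2 rats with a score near −4, LE 11 and 12 and LC 1 and 2, which are neighbours in array number. Dbp, which followed it closely by construction, was at 6.79, 9.90 and 13.21 in LE and 7.01, 11.90 and 14.28 in LC (difference −1.17, exact permutation p = 0.485). The first principal component of the 12 arrays held 17.0% of the variance, with Dbp and Nr1d1 among its leading genes and Arntl with the opposite sign.

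Per1 was the clock gene with the lowest unadjusted p. It encodes a repressor of the clock that also responds to glucocorticoids and to cAMP. Its signal was 7.10, 7.83 and 8.62 in LE against 8.08, 8.91 and 9.54 in LC rats, with 4 LE rats below the LC range. The difference was −0.98 (SE 0.28, FC −1.98, unadjusted limma p = 0.00224, exact permutation p = 0.0216). With the clock score as a covariate it was −0.82, past the criteria. It was −1.12, also past them, with LE 11 and 12 and LC 1 and 2 left out, a setting chosen after the data were seen. Per1 was the 1 candidate among 10 clock repressors (median −0.27), where 2.7% of all transcripts were candidates. That median lay between −0.437 (without LE 10) and 0.00 (without LE 12) when each rat was left out, and was 0.022 with the clock score, which 5 of the 10 enter, as a covariate. Per2, a relative of Per1, differed by −0.26 (exact permutation p = 0.335) and Per3, another member of the family, by −0.59 with signals of 5.32 to 8.52 in LE and 5.44 to 9.82 in LC. Among 8 outputs of the clock, 7 were below 0 and 1 was a candidate, Usp2, a deubiquitinating enzyme, at 5.57, 6.57 and 6.86 in LE and 5.91, 7.35 and 8.71 in LC (−1.07, unadjusted limma p = 0.0145, exact permutation p = 0.0541, and −0.89 with the clock score as a covariate).

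Signals of several genes with large differences are given beside the clock score. Zfp354a, a zinc finger protein, was at 7.27, 7.54 and 7.77 in LE and 7.21, 8.88 and 10.23 in LC, where LC 4, 5 and 6, the rats with the highest scores of the lean groups, stood at 9.85 or above and LC 1 to 3 at 7.92 or below. Its difference was −1.22 (SE 0.46, FC −2.33, unadjusted limma p = 0.0156, exact permutation p = 0.106). LE 9 and 10, with clock scores above 0, had Zfp354a signals of 7.69 and 7.27. Slc6a6 ran the other way, with its highest signals in LE 11 and 12 and in LC 2, and its difference was 1.08 with the score as a covariate, past the criteria. With the covariate Zfp354a differed by −1.03, Tsku by −1.67 and Cyp7a1 by −1.54, and all 3 met the criteria. LE 11 and 12 and LC 1 and 2 were also left out, a setting chosen after the data were seen. The differences were then 1.57 for Slc6a6, −1.88 for Zfp354a, −1.74 for Tsku and −2.45 for Cyp7a1. These values met the criteria, but so did 984 transcripts in that setting, against 625 with all rats. The genes were picked for large differences in these same rats, so nothing is read from this. The part of the time of day in these differences was not tested, since the sources give no time for any rat.

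**Figure D3:**
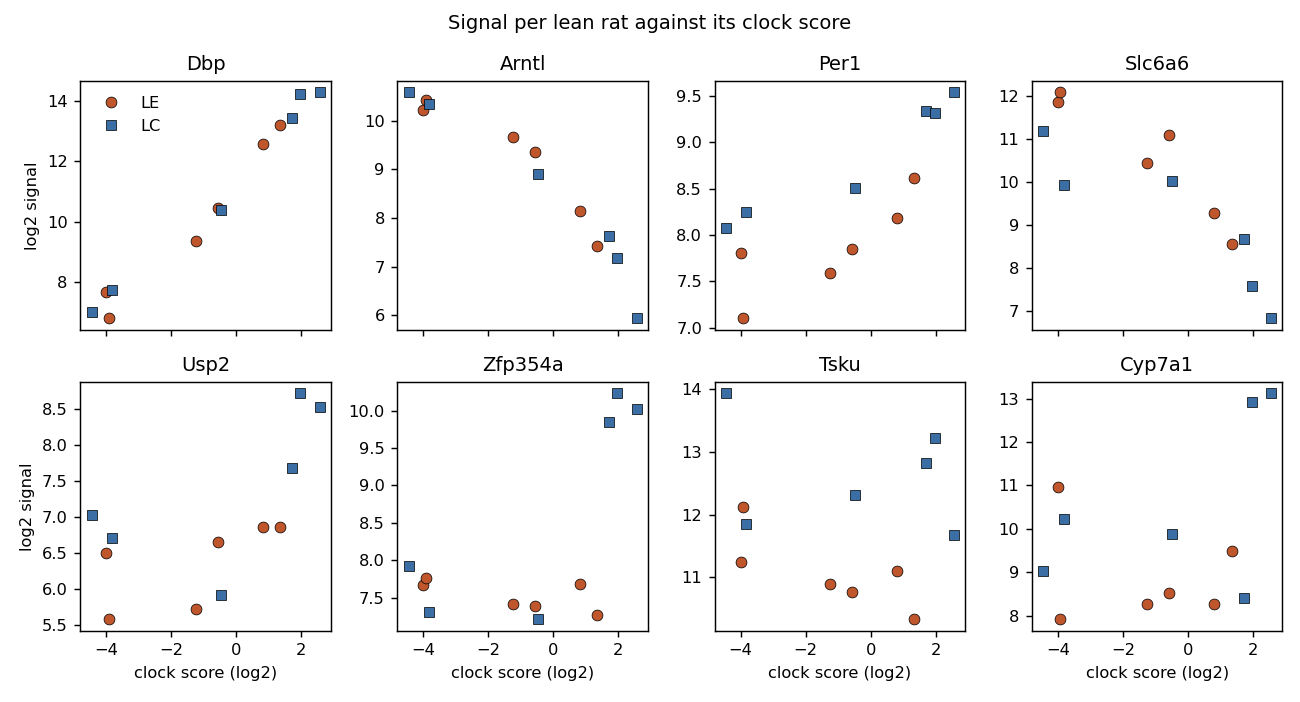
Log2 signal (vertical axis) of 8 genes plotted against the clock score (log2 units, horizontal axis) in 6 LE rats (circles) and 6 LC rats (squares). Dbp and Arntl follow the score in both groups, the LE rats lie at lower Per1 signals than the LC rats of similar scores, as they do for Tsku except for LE 12 beside LC 1, and Zfp354a is high in LC 4, 5 and 6 alone.

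The other named candidates with a signal at or above the median had varied roles. Higher in LE were Etv6, an ETS-family repressor (0.97, SE 0.42, exact permutation p = 0.108), Sgk2, a kinase of the serum and glucocorticoid-regulated family (0.95, SE 0.39, exact permutation p = 0.0844), Epha2, a receptor of ephrins (0.85, SE 0.36, exact permutation p = 0.0931), Tor3a, a torsin ATPase (0.78), Tmcc3, a membrane protein of the endoplasmic reticulum (0.75), and the uncharacterised LOC102551354 (0.84). None of these 6 separated the groups, with 2 or 3 LE rats each above the LC range, and each missed the criteria without 3 to 7 of the single rats. Etv6 was highest in LE 11 (10.42) and LE 12 (10.24), the LE rats with the lowest clock scores. Lower in LE were Mansc1, a membrane protein with a MANSC domain, at 5.80, 6.31 and 6.59 in LE against 6.27, 7.07 and 7.54 in LC (−0.77, SE 0.21, unadjusted limma p = 0.00152, exact permutation p = 0.0108), and LOC102546754, annotated as similar to an autophagy regulator, at 5.91, 6.19 and 6.80 in LE against 6.69, 7.02 and 7.83 in LC (−0.78, SE 0.21, unadjusted limma p = 0.00158, exact permutation p = 0.013). Both met the criteria without any single rat. Rasgef1b, an exchange factor of the Ras family, differed by −0.91 (exact permutation p = 0.0584), Asns, the asparagine synthetase, by −0.79 (exact permutation p = 0.128, and −0.44 without LC 5) and Trib1, a pseudokinase that regulates hepatic lipid synthesis, by −0.72 (exact permutation p = 0.121, and −0.46 without LC 1), and the criteria were missed without any of 7 rats for Asns and any of 9 for Trib1.

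The signals of the 2 diet groups did not overlap for 45 transcripts, 24 higher in LE (0.104% of all transcripts) and 21 lower (0.0906%). At or above the median signal there were 8 and 4. Beside Bmp1, those with the largest differences were Ppfibp2, a liprin of cell adhesion sites, at 9.70 to 10.62 in LE and 8.73 to 9.63 in LC (0.64), Grifin, a galectin-like protein of the lens, at 6.66 to 7.63 in LE and 6.09 to 6.62 in LC (0.63), LOC102549391, a zinc finger protein (0.60), and Rps15al1, a copy of a ribosomal protein gene whose probes may share signal with its paralogs (0.46). All 4 genes of the opposite direction are given. RGD1584023, a zinc finger protein, was at 6.57 to 7.44 in LE and 7.47 to 7.99 in LC (−0.60), Fv1, in mice a retroviral restriction factor, at 7.22 to 7.48 in LE and 7.63 to 8.31 in LC (−0.55), LOC691254 differed by −0.47 (and by −0.34 without LC 1) and Pofut2, an O-fucosyltransferase of the endoplasmic reticulum, at 8.07 to 8.30 in LE and 8.32 to 8.62 in LC, by −0.25, under the FC of 1.3. The exact permutation p of each was 0.00216, the smallest possible, which any gene without overlap has. It is also the fraction of transcripts expected without overlap if the diet made no difference. The 24 higher and 21 lower transcripts together make up a smaller share. Ccl21, a chemokine of lymphatic vessels, did not overlap either, at 4.58, 4.96 and 5.25 in LE against 3.85, 4.15 and 4.50 in LC (0.75, FC 1.69), but these signals lie at percentile 14.3 of all transcripts, around the median of the smell and taste receptor genes.

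Over 40 gene lists, 19 of 491 distinct measured members were candidates (3.87%, against 2.7% of all transcripts), 11 higher and 8 lower in LE. The lists were chosen with earlier results of these data known. They hold Tsku, Per1, Inmt, Id2 and Cyp7a1, so nothing is read from the higher share. A median within 0.1 of 0 was found for 29 lists. Xenobiotic metabolism, under the receptors CAR and PXR, had 9 of 23 members above 0, 14 below and a median of −0.04. Its 1 candidate was Cyp1a2, which oxidises aromatic amines and caffeine, at 9.25, 9.87 and 10.93 in LE against 9.69, 10.53 and 11.23 in LC (−0.70, FC −1.62, exact permutation p = 0.0714), while Cyp3a9, a steroid hydroxylase, differed by 0.61 (exact permutation p = 0.134) and Nr1i3, which encodes CAR, by 0.51. None of 21 nuclear receptors was a candidate (median −0.05). Genes under the glucocorticoid receptor were 6 above and 13 below 0 (median −0.19). Their mean signal per rat was 11.16 to 11.52 in LE, within the range of 10.84 to 12.06 in LC. Per1 and Tsku were the 2 candidates, which the clock and the BMP lists hold too. Fkbp5 and Tsc22d3, textbook targets of that receptor, differed by 0.01 and −0.19.

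Growth hormone and STAT5 targets held no candidate among 13 (median −0.05). Cish, a feedback inhibitor of cytokine receptors, was at 7.00, 9.40 and 11.23 in LE and 8.57, 10.64 and 11.91 in LC (−1.03, exact permutation p = 0.284), and Igf1, which encodes insulin-like growth factor I, differed by 0.01 (95% interval −0.27 to 0.29). Of 15 genes of endoplasmic reticulum and integrated stress, 2 were above and 13 below 0, with a median of −0.13 and Asns as the 1 candidate. The median was −0.32 without LC 1 and −0.086 without LC 4, the extremes when each rat was left out. The mean signal of the list per rat was 11.05 to 11.55 in LE, within the range of 10.86 to 11.74 in LC. Xbp1, a transcription factor of the unfolded protein response, differed by −0.33 (exact permutation p = 0.115), but Atf4, which drives Asns, differed by −0.04 and Ddit3, a target of Atf4, by −0.10. Gluconeogenesis held no candidate among 13 genes (median 0.03, and −0.306 with LE 11 and 12 and LC 1 and 2 left out), and Pck1, its cytosolic carboxykinase, differed by 0.31 (95% interval −0.49 to 1.11, and −0.1 without LC 1). Of 16 cell cycle genes, 10 were below 0 and 1 was a candidate, Ccne1 (cyclin E1), at −0.55 and a low signal, and Pcna, the replication clamp, differed by −0.35 (exact permutation p = 0.0281), under the FC of 1.3. The 13 voltage-gated sodium channel genes, none of which had a signal at or above the median, held 2 candidates. These were Scn8a (0.56, exact permutation p = 0.0152) and Scn10a (0.45, exact permutation p = 0.0325), which are channels of neurons. Candidates made up 2.7% of all transcripts, and 3.26% and 3.52% of those in the dimmest bin and the next. Sodium ion transport was a term that the study reported as enriched among transcripts higher in LE on these same arrays. The list therefore follows a known result of these data, and nothing is read from its count.

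Markers of the cells that liver tissue holds beside hepatocytes overlapped between the groups in their mean signals. Mean signals of the lists were 9.18 to 9.93 in LE and 9.25 to 9.81 in LC for 8 endothelial markers, 8.33 to 8.77 in LE and 8.51 to 8.70 in LC for 11 stellate cell markers, and 9.23 to 9.78 in LE and 9.24 to 9.84 in LC for 9 markers of red blood cells. The 1 candidate among all marker lists, where 2.7% of all transcripts were candidates, was Vwf, the von Willebrand factor of endothelium. It was at 3.94, 4.66 and 4.97 in LE against 4.61, 5.01 and 5.24 in LC (−0.43, exact permutation p = 0.0303). This signal is close to that of smell and taste receptor genes.

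**Figure D4:**
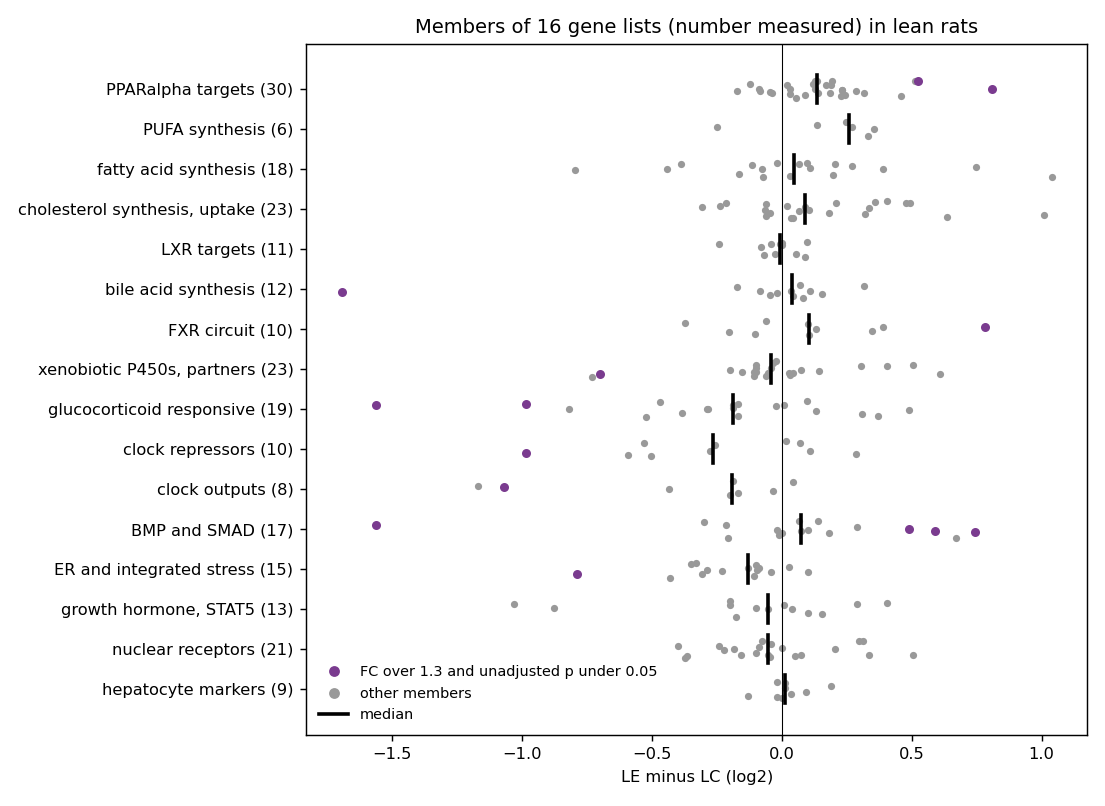
Difference LE minus LC (log2, horizontal axis) of every measured member (points) of 16 gene lists, with the list median as a bar. The medians lie between −0.27 (clock repressors, whose median was 0.022 with the clock score as a covariate) and 0.26 (synthesis of polyunsaturated fatty acids), and the lowest points are Cyp7a1 at −1.69 and Tsku at −1.56.

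The effect of the diet in lean rats was compared with that in obese rats by the interaction, the difference LE minus LC less the difference OE minus OC, in a limma fit of all 24 arrays. The 2 contrasts share no rats. No transcript passed the adjustment (0 of 23188, 0.0%, lowest adjusted p 1.0), and 912 (3.93%) had an unadjusted p under 0.05. In OE vs. OC, 1000 transcripts (4.31%) met the FC and p criteria. Of the 625 candidates of lean rats 334 (53.4%) had the same sign in obese rats, and 17 were candidates in both with the same direction and 16 with opposite directions. Of the 20 genes with the largest differences among lean candidates at or above the median signal, 12 had the same sign in obese rats and 0 were candidates there.

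Tsku and Cyp7a1 had lower mean signals with ecdysterone in both genotypes. Tsku differed by −1.56 in lean and by −1.01 in obese rats (95% interval −2.41 to 0.39), with signals of 9.17, 11.54 and 12.57 in OE against 10.33, 11.78 and 14.55 in OC, and the interaction was −0.55 (SE 0.84). Cyp7a1 differed by −1.69 in lean and by −1.42 in obese rats (−2.92 to 0.08), with signals of 8.70, 11.26 and 12.65 in OE against 10.01, 12.51 and 15.73 in OC, and the interaction was −0.27 (SE 1.13). The groups overlapped for both genes. For Fgf21, Nr0b2 and Per1 the estimates in obese rats were closer to 0, but each interaction was under 2 SE. Fgf21 and Nr0b2 differed by 0.81 and 0.78 in lean and by 0.08 and 0.10 in obese rats, interactions of 0.73 (SE 0.48) and 0.68 (SE 0.53), and Per1 by −0.98 in lean and −0.05 in obese rats, an interaction of −0.94 (SE 0.55).

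Of the 143 genes examined singly, 26 had an unadjusted interaction p under 0.05, against 3.93% of all transcripts. Many of the 143 were chosen for a large difference in lean rats, which is itself a term of the interaction, so nothing is read from that count, and the values of Inmt, Id2, Bmp1, Fv1, Cish and Trib1, which are among the 26, are given as a description. Inmt differed by 1.3 in lean and −0.11 in obese rats (interaction 1.41, SE 0.59), whose signals of 4.41 to 6.68 in OE and 5.17 to 6.51 in OC lay mostly below the lean range. Id2 differed by 0.74 in lean and −0.11 in obese rats (interaction 0.85, SE 0.28), and Bmp1 by 0.61 in lean and −0.03 in obese rats (0.65, SE 0.29). Fv1 had opposite signs, −0.55 in lean and 0.45 in obese rats, where it was at 7.02, 7.48 and 8.09 in OE against 6.81, 7.11 and 7.15 in OC (interaction −1.0, SE 0.215). Cish differed by −1.03 in lean and 1.16 in obese rats (interaction −2.19, SE 0.945), and Trib1 by −0.72 in lean and 0.54 in obese rats (−1.26, SE 0.53). The lowest adjusted p of the interaction over all transcripts was 1.0 in limma, so that none of these differences between genotypes passed the test. The median of the 30 PPAR alpha targets was 0.14 in lean and 0.04 in obese rats, with 24 and 16 members above 0.

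**Figure D5:**
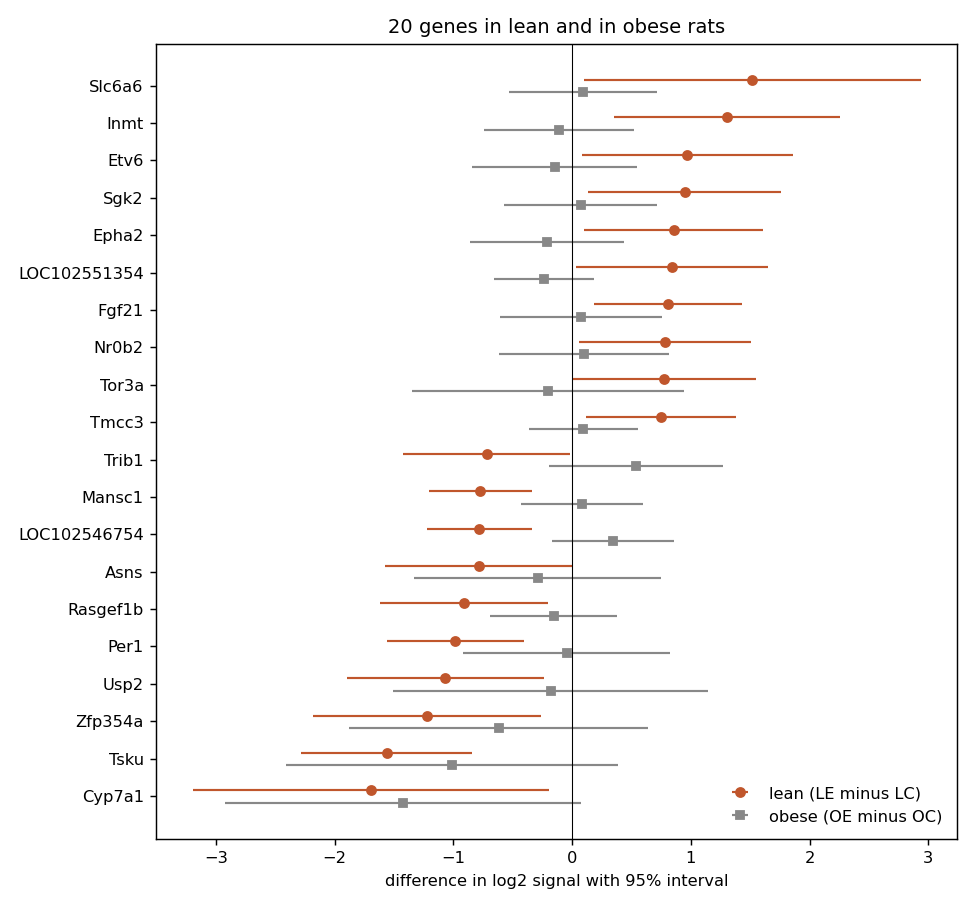
Diet effect with its 95% confidence interval (log2, horizontal axis) for the 20 candidates with the largest differences in lean rats at or above the median signal, as LE minus LC and as OE minus OC (6 rats per group). The intervals of OE minus OC all include 0, and Cyp7a1 and Tsku are the genes whose lean and obese estimates are both below −1.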

How the data were processed

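Liver RNA of 12 lean rats (6 LE, 6 LC) and 12 obese rats (6 OE, 6 OC) had been hybridised to Affymetrix Clariom S rat arrays, 1 per rat. The authors summarised probes per transcript with background correction and RMA-type normalisation (Affymetrix Expression Console 1.4, per the labels), and the values they deposited are log2 signals. The deposited table also holds the authors' own fold changes and p-values per comparison, which were not used. Raw intensities were not used, so this normalisation was not repeated. The 6 LE and 6 LC arrays entered a 2-group linear model in limma (version 3.58.1, R version 4.3.3; default eBayes), with Benjamini-Hochberg adjustment over 23188 transcripts and a threshold of adjusted p under 0.05. The fit was checked on simulated data drawn independently for each rat and transcript. That check could not cover rats that resemble each other, such as cage-mates. Single genes were also compared by the two-sided exact permutation test over 924 splits, and the interaction was fitted on all 24 arrays. Genes with several probe sets are represented by the one with the highest mean signal. Of the 23188 transcripts, 22900 carried a symbol, including 23 of 27 symbols turned into dates in the table, which were resolved by accession.

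Named are the 10 genes with the largest difference in each direction among those at or above the median signal and past both criteria, up to 5 per direction whose groups did not overlap at such signals, the genes Tsku, Per1, Inmt, Id2, Cyp7a1 and Ccl21, and members of 40 gene lists, up to 4 by size of difference and those needed to describe a role. The comparison, the lists and the named genes were chosen with earlier results of these data known, so lists are described by counts and medians and not tested. Alternatives were a fit of all 24 arrays, the methods' t-test, the permutation test on every transcript, eBayes with trend and robust, array weights, quantile normalisation or median centring of the arrays, leaving out transcripts dimmer than the median, the second deposited table, the mean of probe sets, the clock score as a covariate and leaving out each rat. Promoter sequences came from RefSeq (build GRCr8). Cages were shared and most rats of each group were arrayed, so the arrays of each group must include cage-mates. The limma and permutation p-values treat rats as independent and thus measure only the spread between these rats.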

Additional observations from a re-analysis of the deposited data

Results flagged for a closer look

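For 286 sets of 6 signals, those of 143 genes in LE and in LC rats, the gap between the highest or lowest rat and its nearest neighbour was compared with the critical value of Dixon's test, and 14 exceeded it. Chance alone exceeds it in about 1 of 20 such sets. In LE rats, LE 7 stood at 12.69 for Id2 (the others at 11.33 to 11.69) and at 5.64 for Scn10a (4.64 to 5.01), and LE 11 at 10.41 for Cyp7b1 (7.82 to 8.36) and at 17.57 for Hspa5, an endoplasmic reticulum chaperone (16.65 to 16.95). In LC rats, LC 1 was the lowest for 3 metabolic genes: at 5.94 for Sds, the serine dehydratase (11.98 to 15.10 in the others), at 15.16 for Pck1 (17.18 to 18.08) and at 18.80 for Cyp2c11, the male-specific P450 of rat liver (19.08 to 19.16). LC 3 was at 12.18 for Angptl4, an inhibitor of lipoprotein lipase (13.27 to 13.74), at 13.48 for Fasn (15.62 to 16.79) and at 15.25 for G6pc, the glucose-6-phosphatase (12.08 to 12.74). LC 2 was at 8.61 for Zbtb16, a glucocorticoid-induced factor (7.34 to 7.58), and at 3.72 for Esr2 (3.21 to 3.35), and LC 6 at 8.62 for Pofut2 (8.32 to 8.42) and at 19.85 for Alb (19.91 to 19.92).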

How the results depend on the processing

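For 31 named genes past the criteria or without overlap, 637 of 774 values under other settings left the call unchanged, 137 lost it and 0 changed sign. Unchanged includes Pofut2, which missed the criteria under every setting and so had no call to lose. The call was unchanged under every setting for 14 genes and without any single rat for 19, with Pofut2 counted in both. The methods' t-test and the permutation test ended it for 15 genes each, the fit of 24 arrays for 5, and the clock score as a covariate for 2. Of 2 settings chosen after seeing the data, a random block of rats with neighbouring array numbers ended it for 3 and removal of LE 11 and 12 and LC 1 and 2 for 9. With those 4 rats removed, 507 transcripts were higher and 477 lower in LE past both criteria (306 and 319 with all rats), the lowest limma adjusted p was 0.141, the median of the stress genes was −0.39 and that of the cell cycle genes 0.077. Without transcripts below the median signal, 112 were higher and 105 lower past both criteria, 332 had an unadjusted p under 0.05, 8 and 4 did not overlap, and the cell cycle median was −0.23. With 1 rat left out, transcripts without overlap numbered 35 to 49 (higher in LE) and 28 to 49 (lower), since fewer rats overlap less. Of the medians of 40 gene lists, 19 kept their sign without any single rat and 16 of these also without the 4 rats, and the sign of 11 turned when the 4 were removed. No paired analysis was made, since the lean rats were assigned at random to the LE or the LC group. Signals near those of smell and taste receptors, such as Ccl21, Vwf and Scn10a, limit what can be read from those genes.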

Other observations

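Several gene groups of liver not described above lay close to 0 in LE vs. LC. None of 16 acute phase genes was past the criteria (median 0.01), nor any of 10 heat shock genes (−0.04). The same held for 21 genes of amino acid breakdown and the urea cycle (0.08), 23 immediate early genes (−0.05) and 10 genes of glucose use (−0.04). Of all transcripts, 2.7% were past the criteria. Of 13 NRF2 targets, which respond to oxidants, 8 were above 0 (median 0.08), and Slc7a11, the cystine transporter, was the 1 gene past the criteria, at 5.05, 5.54 and 5.87 in LE against 4.73, 5.07 and 5.53 in LC (0.40, exact permutation p = 0.0779). Osgin1, an oxidative stress-induced growth inhibitor, differed more, by 0.85, with a wide overlap at 9.93 to 13.21 in LE and 9.81 to 13.17 in LC. The sex-specific P450 genes of rat liver were not past the criteria: Cyp2c11, the male form, differed by 0.09 and Cyp2c12, the female form, by −0.63 with signals of 12.59 to 15.10 in LE and 13.45 to 16.17 in LC.

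Chka, the choline kinase, and Sdr16c6, of the short-chain dehydrogenase family, were among the 13 transcripts with a difference over 1 in either direction, at 1.08 (exact permutation p = 0.29) and −1.53 (exact permutation p = 0.353), and were singled out after their values were seen.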
